A study of Mus musculus with 6 samples.

Results

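The genes described here encode the nuclear subunits of respiratory complex II, complex III and the mitochondrial ATP synthase, with cytochrome c and the assembly factors that share their gene symbols. They were selected by symbol and biotype, as protein-coding rows of the count table whose symbol begins with Sdha, Sdhb, Sdhc, Sdhd, Uqc or Atp5, together with Cyc1 and Cycs. This gave 39 of the 54929 rows. Of these, 8 belong to complex II, 13 to complex III and cytochrome c, and 18 to ATP synthase. The count filter kept 38 of them among 14807 tested genes. The exception was a second Atp5o row (ENSMUSG00000116933), which had 0 reads in all 6 libraries, so Atp5o below is the other row (ENSMUSG00000022956).

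The libraries are mRNA-seq of left ventricle from wild-type C57BL/6 mice that had undergone TAC (transverse aortic constriction), in which the aorta is tied partly shut and the ventricle pumps against raised pressure. In the anti-PD-1 group (3 libraries) the mice received an antibody that binds PD-1, a receptor that restrains T cells, and in the anti-IgG group (3 libraries) a control antibody. Both antibodies were given intraperitoneally at 10 mg/kg every 3 days from day 14 after surgery, both groups had TAC, and all samples carry the time label 5 weeks. The labels give no age and do not tie the libraries to separate animals, so the p-values below reflect the spread among these samples alone.

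Complex II, succinate dehydrogenase, oxidises succinate in the citric acid cycle and passes its electrons to coenzyme Q in the inner mitochondrial membrane. Complex III moves electrons from coenzyme Q to cytochrome c and pumps protons as it does so. The proton gradient then drives the rotor of ATP synthase, whose F1 head makes ATP and whose Fo part lies in the membrane. The heart depends on this route for nearly all of the ATP that contraction uses, and its muscle cells are packed with mitochondria.

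Summed counts per library were 18063344 to 21093163, and mitochondrially encoded transcripts took 28.9% to 35.6% of them with anti-PD-1 and 29.9% to 39.3% with anti-IgG. Levels are given as CPM, the usual unit of a gene's reads relative to all counted reads, here scaled between libraries by TMM and listed for libraries 1 to 3 of each group. Changes are log2 fold changes of anti-PD-1 over anti-IgG with a standard error (SE) from edgeR's quasi-likelihood test. A gene is said to have fallen or risen where the Benjamini-Hochberg adjusted p over all tested genes was under 0.05. The cardiomyocyte markers listed for this tissue were abundant. Of 3 atrial markers Sln had 0 reads in all 6 libraries, Myl7 had 2 reads summed over each group and Myl4 had 9 to 17 reads per library with anti-PD-1 and 16 to 44 with anti-IgG. Of 3 brown fat markers Ucp1 had 0 reads, Elovl3 had 0 to 5 and Cidea 165 to 296 with anti-PD-1 and 243 to 454 with anti-IgG. Of 4 skeletal muscle markers Myh4 had 0 reads, Myh1 had 1 in all, Mylpf had 4 summed over anti-PD-1 and 44 over anti-IgG, and Acta1, which the ventricle also expresses, had 5642, 5005 and 7329 CPM in the anti-PD-1 libraries, against 2313, 5015 and 5377 CPM in the anti-IgG libraries. Their part in the results was not tested. In whole tissue, fewer cells of a type and less RNA per cell cannot be told apart.

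For 29 of the 38 tested genes RefSeq's promoter table (GRCm38.p6) held a sequence of 300 bases, from 250 before the gene's start to 50 after it. They were searched on both strands for letters from the motif of NRF1, a factor known for driving respiratory chain genes, written TGCGCA, and for the core motif of the GABP factors, written CCGGAAG. The promoters shown belong to Uqcr11, which had the largest fall, to Atp5h, the fall with the smallest adjusted p, and to Sdha, which did not pass. Capitals mark the motif matches, and the sequences read 5′ to 3′ on the gene's strand.
Uqcr11, chr10:80406772-80407071, minus strand: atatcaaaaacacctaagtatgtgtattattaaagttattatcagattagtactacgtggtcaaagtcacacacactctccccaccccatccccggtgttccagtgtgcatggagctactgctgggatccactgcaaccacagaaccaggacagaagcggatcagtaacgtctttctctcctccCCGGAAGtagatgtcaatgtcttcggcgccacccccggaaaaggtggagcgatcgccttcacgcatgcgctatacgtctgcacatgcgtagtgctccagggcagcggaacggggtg
Atp5h, chr11:115419870-115420169, minus strand: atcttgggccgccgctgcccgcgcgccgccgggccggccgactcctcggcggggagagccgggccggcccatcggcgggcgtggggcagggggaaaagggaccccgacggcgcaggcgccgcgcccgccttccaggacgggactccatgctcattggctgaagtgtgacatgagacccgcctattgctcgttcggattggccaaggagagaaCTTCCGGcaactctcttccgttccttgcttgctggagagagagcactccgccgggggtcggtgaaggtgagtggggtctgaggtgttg
Sdha, chr13:74350191-74350490, minus strand: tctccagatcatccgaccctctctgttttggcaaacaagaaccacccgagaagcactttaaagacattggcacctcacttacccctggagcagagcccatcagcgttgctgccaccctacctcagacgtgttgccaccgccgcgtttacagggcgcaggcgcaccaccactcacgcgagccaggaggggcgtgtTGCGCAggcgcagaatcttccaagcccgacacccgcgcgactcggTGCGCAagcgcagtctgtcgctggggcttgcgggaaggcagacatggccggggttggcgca
The Uqcr11 window holds a GABP match and no NRF1 match, that of Atp5h likewise, and that of Sdha holds 2 NRF1 matches and no GABP match. In all, 8 of the 29 promoters (27.6%) held the NRF1 letters, against 8.06% of 27025 promoters of the same length in the table, and 11 (37.9%) held the GABP letters, against 9.12%. These 27025 promoters were not limited to tested genes or matched for base composition. Matches of the motifs overlapped each other in 0 of the 29. Of the 8 genes with an NRF1 match 4 fell, and of the 21 without one 14 fell. Of the 11 with a GABP match 6 fell, and of the 18 without one 12 fell. A match describes letters in this window and shows no binding. Only these exact letters were searched, so the lack of a match does not show that a window holds no site.

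With anti-PD-1, 22 of the 38 tested genes fell, 0 rose and 16 did not pass. Over all tested genes, 10.8% fell and 10.3% rose, so 21.1% changed. The median log2 fold change was -1.11 over the 38 genes and -0.030 over all tested genes. In 27 of the 38 every anti-PD-1 value lay below every anti-IgG value, which was so in 20.8% of all tested genes. The opposite held in 0 of the 38, against 20.2% of all tested genes. The other 11 overlapped; of all tested genes 41% had no overlap. The falls were unequally spread over the complexes and over the roles within them. Complex II had 2 falls among 8 genes, both in assembly factors (median -0.42), complex III and cytochrome c had 9 among 13 (median -1.30), and ATP synthase had 11 among 17 (median -1.16). The differences between complexes were not tested. Of the 22 falls 19 were by at least 1 on the log2 scale, a size reached by falls in 6.27% of all tested genes.

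**Figure D1:**
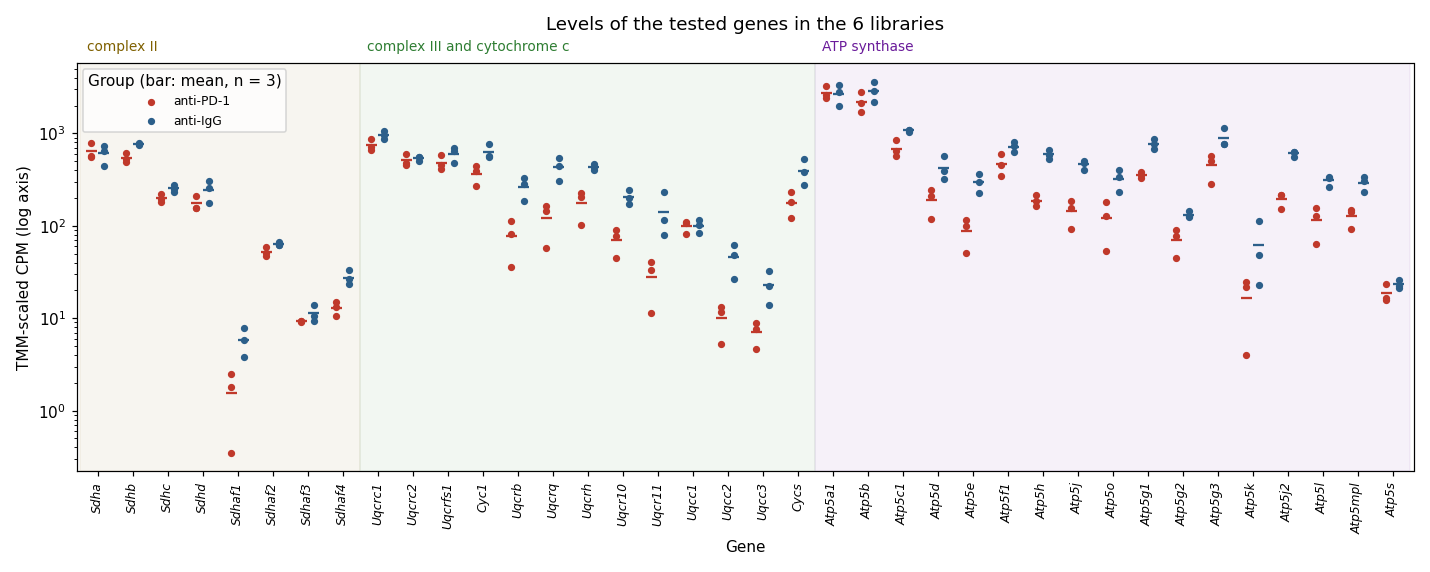
Level of each tested gene in every library as TMM-scaled CPM on a log axis, with genes in the order of their complexes and roles, anti-PD-1 left of anti-IgG, and a bar at the mean of 3 libraries. The points of the groups overlap for Sdha, Uqcrc2 and Atp5a1, and lie apart for most small subunits, for which anti-PD-1 library 1 is often the lowest point.

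Reads summed over the subunits of a role showed the same unevenness. The 4 complex II subunits together had 1401, 1837 and 1439.8 CPM in the anti-PD-1 libraries, against 1996, 1626 and 1995 CPM in the anti-IgG libraries, so the groups overlapped and the anti-PD-1 mean was 83.3% of the anti-IgG mean. The 9 complex III subunits summed to 2100.4, 3122 and 2529.7 CPM in the anti-PD-1 libraries, against 3887, 3865 and 4905 CPM in the anti-IgG libraries. Here the groups lay apart, with an anti-PD-1 mean at 61.2% of the other. Within ATP synthase, the 5 F1 genes had 5019.6, 7261 and 5519 CPM in the anti-PD-1 libraries, against 8582, 5921 and 7634 CPM in the anti-IgG libraries, which overlapped, since anti-PD-1 library 2 stood above anti-IgG library 2. Most of this sum came from Atp5a1 and Atp5b, with means of 2756 and 2212 CPM under anti-PD-1 and 2697 and 2877 CPM under anti-IgG. The values of Atp5c1, Atp5d and Atp5e each lay apart. The 4 tested peripheral stalk genes had 658, 1175 and 922 CPM in the anti-PD-1 libraries, against 1889.6, 2140.4 and 2271 CPM in the anti-IgG libraries. For the 3 c ring genes the sums were 659, 1043 and 931 CPM in the anti-PD-1 libraries, against 1564, 1674 and 2164 CPM in the anti-IgG libraries. The 4 other Fo genes had 312, 542 and 506 CPM in the anti-PD-1 libraries, against 1175, 1330.1 and 1313 CPM in the anti-IgG libraries. In these last 3 roles no libraries overlapped, and the anti-PD-1 means were 43.7%, 48.7% and 35.6% of the anti-IgG means. Sums of chosen genes were given no test.

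**Figure D2:**
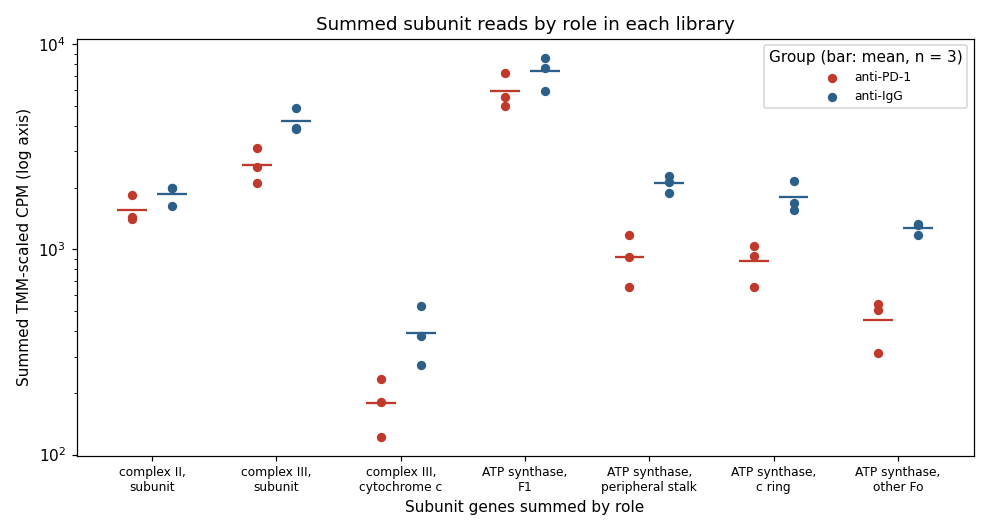
Reads summed over the subunit genes of each role in every library, as TMM-scaled CPM on a log axis, with anti-PD-1 left of anti-IgG and a bar at the mean of 3 libraries. The groups overlap for complex II subunits and the F1 genes and lie apart for complex III subunits, cytochrome c, the peripheral stalk, the c ring and the other Fo genes.

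None of the 4 complex II subunits passed, and their log2 fold changes ran from -0.49 to 0.075. Sdha, the flavoprotein that oxidises succinate (chromosome 13, 74322254 to 74350280 in mm10), had 569.6, 786 and 562 CPM in the anti-PD-1 libraries, against 734, 439.7 and 647 CPM in the anti-IgG libraries. These values overlap (log2 change 0.075 with SE 0.25, edgeR's adjusted p = 0.855). Sdhb carries the iron-sulphur clusters that take electrons from Sdha, and it stood at 493, 617 and 525 CPM in the anti-PD-1 libraries, against 753, 780.2 and 765 CPM in the anti-IgG libraries. Its anti-PD-1 values were all lower, yet the change did not pass (log2 change -0.49 with SE 0.20, edgeR's adjusted p = 0.0986). The membrane anchors Sdhc and Sdhd hold the coenzyme Q site. Sdhc had 180.4, 223 and 197 CPM in the anti-PD-1 libraries, against 253, 231 and 278 CPM in the anti-IgG libraries (log2 change -0.35 with SE 0.19, edgeR's adjusted p = 0.199). Sdhd had 158, 211 and 156 CPM in the anti-PD-1 libraries, against 255, 176 and 304 CPM in the anti-IgG libraries (log2 change -0.49 with SE 0.24, edgeR's adjusted p = 0.157). The groups lay apart for Sdhc and overlapped for Sdhd.

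The assembly factors of complex II divided. Sdhaf1, which helps to insert iron-sulphur clusters into Sdhb, had 7, 47 and 38 reads with anti-PD-1, against 74, 103 and 156 reads with anti-IgG, which is 0.349, 2.52 and 1.83 CPM in the anti-PD-1 libraries, against 3.79, 5.76 and 7.81 CPM in the anti-IgG libraries. It fell (log2 change -1.89 with SE 0.56, edgeR's adjusted p = 0.0395), with the smallest summed count of the 38 genes and with anti-PD-1 library 1 far below the rest. Sdhaf4, which binds Sdha once its flavin is attached and promotes its pairing with Sdhb, had 10.7, 15.0 and 13.3 CPM in the anti-PD-1 libraries, against 23.5, 26.3 and 33.0 CPM in the anti-IgG libraries. It fell too, with no overlap (log2 change -1.09 with SE 0.21, edgeR's adjusted p = 0.00883). Sdhaf2, needed for attaching the flavin to Sdha, was at 52.7 ± 6.06 CPM under anti-PD-1 and 63.4 ± 2.48 CPM under anti-IgG (SD, n = 3 each) and did not pass (log2 change -0.26 with SE 0.17, edgeR's adjusted p = 0.269). Sdhaf3, a partner of Sdhaf1, did not pass either (log2 change -0.28 with SE 0.22, edgeR's adjusted p = 0.379).

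In complex III, Uqcrc1, Uqcrc2 and Uqcrfs1 did not pass. Uqcrc1 and Uqcrc2 form the core that faces the mitochondrial matrix. Uqcrc1 had 713, 865 and 661 CPM in the anti-PD-1 libraries, against 966, 862 and 1067 CPM in the anti-IgG libraries (log2 change -0.37 with SE 0.21, edgeR's adjusted p = 0.229). Uqcrc2 had 453, 599 and 482 CPM in the anti-PD-1 libraries, against 562, 501 and 557 CPM in the anti-IgG libraries (log2 change -0.079 with SE 0.20, edgeR's adjusted p = 0.808). Both overlapped between groups and neither passed. Uqcrfs1 is the Rieske iron-sulphur protein, which swings electrons from coenzyme Q towards cytochrome c1. It had 416, 581 and 454 CPM in the anti-PD-1 libraries, against 647, 475 and 693 CPM in the anti-IgG libraries, overlapping values that did not pass (log2 change -0.32 with SE 0.23, edgeR's adjusted p = 0.328).

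Cyc1, the cytochrome c1 haem protein, was at 267, 442 and 391 CPM in the anti-PD-1 libraries, against 563, 555 and 770.0 CPM in the anti-IgG libraries. It fell without overlap (log2 change -0.78 with SE 0.24, edgeR's adjusted p = 0.0437). Cycs, cytochrome c itself, carries electrons from complex III to cytochrome c oxidase and starts the apoptotic protease cascade when it leaks into the cytosol. It had 122, 235 and 179.6 CPM in the anti-PD-1 libraries, against 273, 379 and 527 CPM in the anti-IgG libraries and fell (log2 change -1.14 with SE 0.29, edgeR's adjusted p = 0.0231). The highest anti-PD-1 value of Cycs lay below the lowest anti-IgG value.

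All 5 small subunits of complex III fell. Uqcr11, the shortest gene of complex III by coding length (168 bp; chromosome 10, 80402997 to 80406830), had 11.3, 40.3 and 33.3 CPM in the anti-PD-1 libraries, against 79.2, 116 and 232 CPM in the anti-IgG libraries. It had the most negative value of all 38 genes (log2 change -2.33 with SE 0.55, edgeR's adjusted p = 0.0271), and its anti-IgG values themselves ranged widely. Without a count filter it did not pass (edgeR's adjusted p = 0.126). Uqcrq, which lies beside cytochrome b, had 57.0, 166 and 144 CPM in the anti-PD-1 libraries, against 306, 441 and 545 CPM in the anti-IgG libraries (log2 change -1.82 with SE 0.38, edgeR's adjusted p = 0.0134). Uqcrb, a subunit that contacts the coenzyme Q site, had 36.1, 113 and 82.4 CPM in the anti-PD-1 libraries, against 185, 282 and 327 CPM in the anti-IgG libraries (log2 change -1.77 with SE 0.39, edgeR's adjusted p = 0.0162). In both, anti-PD-1 library 1 was the lowest and anti-IgG library 3 the highest of the 6 libraries. Uqcr10 stood at 45.1, 90.8 and 77.0 CPM in the anti-PD-1 libraries, against 173, 199.7 and 243 CPM in the anti-IgG libraries (log2 change -1.53 with SE 0.26, edgeR's adjusted p = 0.00644). Uqcrh, the hinge protein that links cytochrome c1 to cytochrome c, had 102, 225 and 205 CPM in the anti-PD-1 libraries, against 406, 433 and 470.1 CPM in the anti-IgG libraries (log2 change -1.30 with SE 0.28, edgeR's adjusted p = 0.012). Neither overlapped.

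Of the 3 assembly factors 2 fell. Uqcc2, which with Uqcc1 guards newly made cytochrome b, had 5.28, 13.4 and 11.8 CPM in the anti-PD-1 libraries, against 26.3, 48.0 and 62.3 CPM in the anti-IgG libraries. That was the second most negative value of the 38 (log2 change -2.16 with SE 0.39, edgeR's adjusted p = 0.00952). Uqcc3, which acts on the early cytochrome b module, had 4.64, 7.61 and 8.94 CPM in the anti-PD-1 libraries, against 14.1, 22.2 and 32.4 CPM in the anti-IgG libraries and fell (log2 change -1.70 with SE 0.33, edgeR's adjusted p = 0.00952). Uqcc1, the partner of Uqcc2, was at 100.2 ± 15.8 CPM under anti-PD-1 and 101 ± 16.0 CPM under anti-IgG (SD, n = 3 each) (log2 change -0.0083 with SE 0.20, edgeR's adjusted p = 0.981).

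The catalytic head of ATP synthase held both of the most abundant genes described here and gave 2 falls among its 5 genes. Atp5a1, the alpha subunit, had 2592, 3251 and 2424 CPM in the anti-PD-1 libraries, against 3314, 1976 and 2801 CPM in the anti-IgG libraries. The anti-PD-1 values lay within the anti-IgG range (log2 change 0.031 with SE 0.26, edgeR's adjusted p = 0.945). Atp5b, the beta subunit that carries the catalytic sites (chromosome 10, 128083273 to 128090391), had 1692, 2811 and 2133 CPM in the anti-PD-1 libraries, against 3616, 2168 and 2848 CPM in the anti-IgG libraries and did not pass (log2 change -0.38 with SE 0.28, edgeR's adjusted p = 0.345). Atp5c1, the gamma subunit that turns within the head, was at 686 ± 142 CPM under anti-PD-1 and 1079.5 ± 28.5 CPM under anti-IgG (SD, n = 3 each). Its values did not overlap and its adjusted p was just over the threshold (log2 change -0.66 with SE 0.22, edgeR's adjusted p = 0.0558). Atp5d and Atp5e encode the delta and epsilon subunits at the foot of that rotor, and both fell. Atp5d had 119.8, 243 and 212 CPM in the anti-PD-1 libraries, against 320.3, 388 and 574 CPM in the anti-IgG libraries (log2 change -1.16 with SE 0.30, edgeR's adjusted p = 0.023). Atp5e, the smallest of the 38 by coding length (156 bp), had 51.4, 114 and 100.4 CPM in the anti-PD-1 libraries, against 229.5, 301 and 363 CPM in the anti-IgG libraries (log2 change -1.75 with SE 0.30, edgeR's adjusted p = 0.00694).

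The peripheral stalk holds the head still against the turning rotor. Atp5h, subunit d, had 162, 214 and 185 CPM in the anti-PD-1 libraries, against 529.6, 670.1 and 577 CPM in the anti-IgG libraries. It had the smallest adjusted p of the 38 genes (log2 change -1.66 with SE 0.21, edgeR's adjusted p = 0.00237). Atp5j, coupling factor F6, had 91.7, 186 and 157 CPM in the anti-PD-1 libraries, against 401, 504 and 483 CPM in the anti-IgG libraries (log2 change -1.67 with SE 0.26, edgeR's adjusted p = 0.00516). Atp5o, the oligomycin sensitivity protein at the top of the stalk, had 53.5, 181 and 127 CPM in the anti-PD-1 libraries, against 232, 336 and 406 CPM in the anti-IgG libraries (log2 change -1.43 with SE 0.40, edgeR's adjusted p = 0.0361). All of these fell without overlap, and anti-PD-1 library 1 was the lowest each time. Atp5f1, subunit b, was at 465 ± 122 CPM under anti-PD-1 and 720.5 ± 87.0 CPM under anti-IgG (SD, n = 3 each) and did not pass (log2 change -0.63 with SE 0.24, edgeR's adjusted p = 0.0799).

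The proton-carrying c ring is built from a single mature protein that is made from Atp5g1, Atp5g2 and Atp5g3, which differ in their import sequences. All of these genes fell. Atp5g1 had 331, 382 and 355 CPM in the anti-PD-1 libraries, against 672, 775 and 874 CPM in the anti-IgG libraries (log2 change -1.12 with SE 0.20, edgeR's adjusted p = 0.00756). Atp5g2 had 44.4, 89.1 and 76.7 CPM in the anti-PD-1 libraries, against 126, 124 and 144 CPM in the anti-IgG libraries (log2 change -0.90 with SE 0.24, edgeR's adjusted p = 0.0258). Atp5g3 had 284, 571 and 499 CPM in the anti-PD-1 libraries, against 765, 775 and 1147 CPM in the anti-IgG libraries (log2 change -0.99 with SE 0.29, edgeR's adjusted p = 0.0343). The groups did not overlap in any of them. On the deposited FPKM scale, which divides by gene length, Atp5g3 supplied the largest part of the summed c ring level: 58.1%, 66.6% and 66.0% in the anti-PD-1 libraries, against 62.3%, 60.6% and 66.6% in the anti-IgG libraries (exact 2-sided permutation p = 0.9). The share of Atp5g1 was 30.0%, 19.8% and 20.8% in the anti-PD-1 libraries, against 24.3%, 26.9% and 22.5% in the anti-IgG libraries (p = 0.8 by the same exact test), and that of Atp5g2 12.9 ± 0.905% in the anti-PD-1 group and 12.3 ± 1.28% in the anti-IgG group (SD, n = 3 each), with p = 0.6 by the same exact test. With 3 libraries against 3 the smallest p this test allows is 0.1. No difference in the mix of c genes was detectable.

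The other Fo subunits sit where the membrane bends at rows of ATP synthase dimers. Atp5j2, subunit f, had 153, 214 and 215 CPM in the anti-PD-1 libraries, against 551, 636 and 636 CPM in the anti-IgG libraries (log2 change -1.65 with SE 0.21, edgeR's adjusted p = 0.00301). Atp5l, subunit g, had 63.3, 157 and 129 CPM in the anti-PD-1 libraries, against 266, 339 and 331 CPM in the anti-IgG libraries (log2 change -1.42 with SE 0.30, edgeR's adjusted p = 0.0119). Atp5mpl, a small proteolipid subunit, had 91.4, 147 and 141 CPM in the anti-PD-1 libraries, against 335, 306 and 232 CPM in the anti-IgG libraries (log2 change -1.20 with SE 0.24, edgeR's adjusted p = 0.00905). These fell without overlap. Atp5k, subunit e, had 3.99, 24.5 and 21.7 CPM in the anti-PD-1 libraries, against 22.8, 48.4 and 114 CPM in the anti-IgG libraries. Its log2 fold change was further from 0 than theirs but with a larger error, the groups overlapped, and it did not pass (log2 change -1.88 with SE 0.78, edgeR's adjusted p = 0.129). Atp5s, a factor that has been called coupling factor B, was at 18.6 ± 4.02 CPM under anti-PD-1 and 23.3 ± 2.36 CPM under anti-IgG (SD, n = 3 each) and did not pass (log2 change -0.32 with SE 0.20, edgeR's adjusted p = 0.269).

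Ratios between genes of the same complex were taken from FPKM. Atp5a1 over Atp5b gave 2.07, 1.56 and 1.54 in the anti-PD-1 libraries, against 1.24, 1.23 and 1.33 in the anti-IgG libraries. The ratio of Sdha to Sdhb was 0.627, 0.691 and 0.580 in the anti-PD-1 libraries, against 0.529, 0.306 and 0.459 in the anti-IgG libraries. In each of these pairs the gene with the shorter coding sequence is the denominator, although the authors' gene length is longer for Atp5b (4237 bp) than for Atp5a1 (3135 bp). For Uqcrc1 over Uqcr11 the FPKM ratio was 9.81, 3.32 and 3.08 in the anti-PD-1 libraries, against 1.89, 1.15 and 0.711 in the anti-IgG libraries. That of Atp5b over Atp5e was 13.6, 10.2 and 8.80 in the anti-PD-1 libraries, against 6.53, 2.99 and 3.25 in the anti-IgG libraries. Each of these 4 ratios was higher in all 3 anti-PD-1 libraries than in any anti-IgG library. The ratio of Uqcrc1 to Uqcrc2 lay the other way, at 0.971, 0.892 and 0.846 in the anti-PD-1 libraries, against 1.06, 1.06 and 1.18 in the anti-IgG libraries. All 5 gave an exact 2-sided permutation p of 0.1, the smallest possible, or 0.16 after adjustment over the 8 shares and ratios tested, so none could pass 0.05. The pairs were chosen after the values were seen.

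By FPKM level, Atp5a1 ranked first of the 38 in both groups with 830.0 ± 117 FPKM under anti-PD-1 and 802 ± 207 FPKM under anti-IgG (SD, n = 3 each). Atp5b was second with 493 ± 118 FPKM under anti-PD-1 and 633 ± 165 FPKM under anti-IgG (SD, n = 3 each). Atp5c1 and Uqcrfs1 followed in both groups. Among neighbours in this order, Atp5a1 stood above Atp5b in each of the 6 libraries, though their ranges over libraries overlapped with anti-IgG, and the ranges of Atp5b and Atp5c1 overlapped in both groups. Sdha ranked 10th with anti-PD-1 and 25th with anti-IgG, and Uqcr11 27th with anti-PD-1 and 15th with anti-IgG. Sdhaf1 and Sdhaf3 were the lowest, Sdhaf1 with 0.591 ± 0.414 FPKM under anti-PD-1 and 2.16 ± 0.750 FPKM under anti-IgG (SD, n = 3 each). These levels depend on the authors' gene length, which can be far longer than the mRNA: for Atp5l it is 6443 bp, and its GENCODE transcript has a coding length of 309 bp and a 3' UTR of 154 bp.

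Shorter genes had the larger falls. Among the 26 tested genes with at most 600 bp of coding sequence, 20 fell (median -1.36 on the log2 scale), and among the 12 longer ones Cyc1 and Atp5o fell, with a median of -0.38. In all tested genes with a coding length, 38.7% of those of at most 600 bp fell (median -0.66) and 6.54% of the longer ones (median 0.063). Across the 38 genes, which share the same 6 libraries, longer coding sequence went with a less negative change (Spearman's rho = 0.77 with coding length and 0.45 with 3' UTR length). Some exceptions stood out at a given length. Sdhaf2 (498 bp) was at -0.26 and Sdhc (507 bp) at -0.35, beside Atp5h (483 bp) at -1.66 and Atp5d (504 bp) at -1.16.

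**Figure D3:**
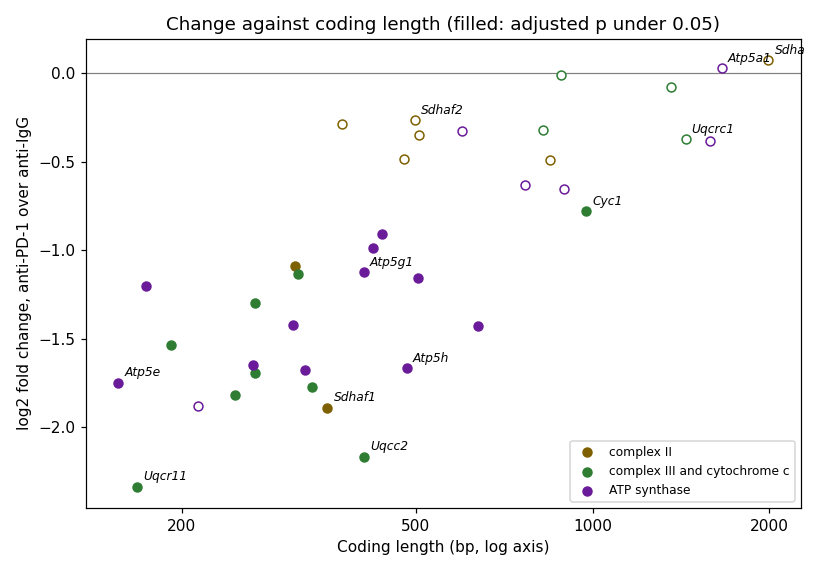
Log2 fold change of anti-PD-1 over anti-IgG for each tested gene against its coding length in bp on a log axis, coloured by complex, with filled points at an adjusted p under 0.05. Uqcr11 and Atp5e, among the shortest, lie at -2.33 and -1.75, and Sdha and Atp5a1, the longest, lie near 0.

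When the dependence of each library on coding length and 3' UTR length was taken out, 3 of the 38 genes remained past the threshold, where 2.9% of all tested genes fell and 3.47% rose, 6.37% in all. Uqcc2 was at -1.24 (edgeR adjusted p = 0.0288), Atp5g1 at -0.99 (edgeR adjusted p = 0.0228) and Atp5h at -0.82 (edgeR adjusted p = 0.032). The other 19 falls did not pass there. Among them Uqcrq was at -1.04, Sdhaf1 at -1.10, Uqcr11 at -0.95, Cycs at -0.76, Uqcrb at -0.75, Atp5o at -0.73 and Uqcc3 at -0.67, whereas Atp5g2 was at -0.041, Sdhaf4 at -0.087 and Atp5mpl at 0.14. The median of the 38 was -0.21, with -0.022 in complex II, -0.43 in complex III and cytochrome c and -0.31 in ATP synthase. Across the 38 genes these values still rose with coding length (Spearman's rho = 0.49). The shares of all tested genes above include genes without these lengths, which were left uncorrected. Of tested genes with at most 600 bp of coding sequence, 63 of 1598 fell in this setting, against 3 of the 26 described here. Of the longer ones 239 of 11468 fell, against 0 of 12. Removing the trend on the deposited gene length instead left 12 genes past the threshold, and each of them fell. The matching share of all tested genes was not counted for that setting. Of the c genes, Atp5g1 was the one with a long annotated 3' UTR (4255 bp, against 153 bp for Atp5g2 and 149 bp for Atp5g3).

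**Figure D4:**
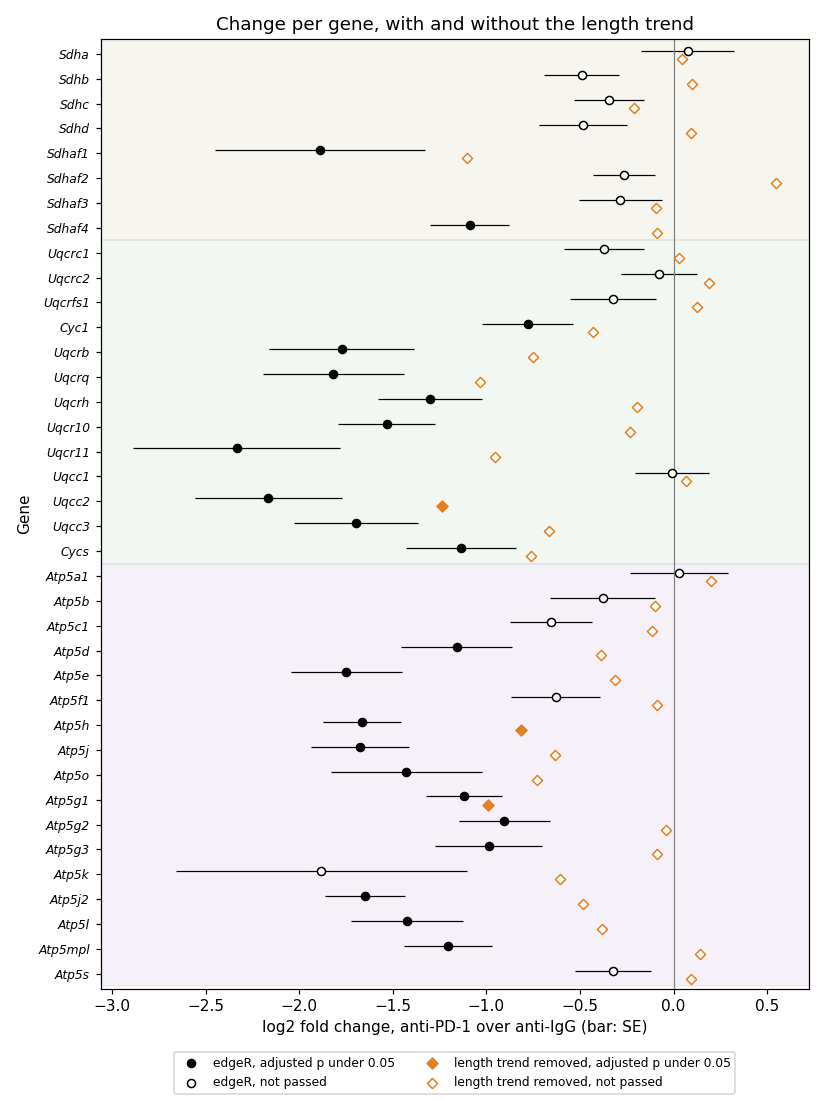
Log2 fold change of anti-PD-1 over anti-IgG for each tested gene from edgeR (circles with SE bars) and with the length trends of the libraries taken out (diamonds), with filled symbols at an adjusted p under 0.05. The circles reach -2.33 at Uqcr11, and most diamonds lie nearer to 0, with Uqcc2, Atp5h and Atp5g1 filled.

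Part of these calls ended when 1 library was left out. In 32 of the 38 genes anti-PD-1 library 1 was the lowest of all 6 libraries, and in 24 anti-IgG library 3 was the highest. Dropping anti-IgG library 2 left 10 falls, and dropping anti-IgG library 3 left 14. Dropping anti-PD-1 library 3 left 14, and dropping anti-PD-1 library 1 left 15. The number was 22 when anti-IgG library 1 was dropped, and 24 when anti-PD-1 library 2 was dropped. The matching numbers over all tested genes were not counted, and dropping a library leaves fewer for every gene. Whether the lost calls reflect the library dropped or the smaller number of libraries was not tested. The 10 genes that stayed past the threshold without any 1 library were Sdhaf4, Uqcr10, Uqcc2, Uqcc3, Atp5e, Atp5h, Atp5j, Atp5g1, Atp5j2 and Atp5mpl. Uqcrq, Uqcrh and Atp5l lost their calls without anti-IgG library 2 (highest edgeR adjusted p 0.0586, 0.0502 and 0.0544), Uqcrb without anti-IgG library 2 or 3 (0.0638), and Uqcr11 when anti-IgG library 2 was left out, and likewise for anti-PD-1 library 3 (0.0738). Sdhaf1, Cyc1, Cycs, Atp5d, Atp5o, Atp5g2 and Atp5g3 each lost theirs without anti-PD-1 library 1 or 3 or anti-IgG library 2 or 3 (edgeR adjusted p up to 0.159, for Cyc1).

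Some of these counts could hold reads of other genes, since the sources used here do not say that counting used strand. Atp5j overlaps Gabpa on the opposite strand by 701 bp, Atp5f1 overlaps Wdr77 by 731 bp and Atp5d overlaps Cbarp by 2204 bp. Pseudogenes of Atp5l, Atp5k and Uqcrh, found by symbol, resemble their parents. The one most counted, Atp5l2-ps, had 6 to 33 reads per library. How reads that match both a parent and a pseudogene were assigned was not examined. A pseudogene, Gm12854, also overlaps Uqcrh on the opposite strand, with 35 reads summed over the anti-PD-1 libraries and 91 over the anti-IgG libraries.

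Partners outside the name rule were taken from lists chosen with earlier results of these data known. Usmg5, a small ATP synthase subunit also called DAPIT, had 59.6, 124 and 116 CPM in the anti-PD-1 libraries, against 314, 399 and 309 CPM in the anti-IgG libraries. It fell (log2 change -1.77 with SE 0.27, edgeR's adjusted p = 0.00508) and stayed past the threshold with the coding and 3' UTR length trend removed (-1.07, edgeR adjusted p = 0.0242). Atpif1, which stops ATP synthase from running backwards, had 12.6, 28.4 and 28.2 CPM in the anti-PD-1 libraries, against 61.9, 87.0 and 60.9 CPM in the anti-IgG libraries and fell (log2 change -1.60 with SE 0.30, edgeR's adjusted p = 0.00883). Among the 11 tested assembly partners and associated proteins 4 fell and 0 rose, with a median of -0.10, where 10.8% of all tested genes fell and 10.3% rose. The other falls were Fmc1 (-0.95) and Tmem242 (-0.85), which take part in ATP synthase assembly (edgeR adjusted p = 0.0136 and 0.0109). Both lost their calls without anti-PD-1 library 1 (0.0605 and 0.0513). With the coding and 3' UTR length trend removed, Fmc1 was at 0.1 (edgeR adjusted p = 0.779), Tmem242 at -0.099 (edgeR adjusted p = 0.746) and Atpif1 at -0.58 (edgeR adjusted p = 0.145), so none of these passed there. With the gene length trend removed, Atpif1 and Usmg5 kept their calls and Fmc1 and Tmem242 lost theirs. The chaperones of the F1 head, Atpaf1 and Atpaf2, were at 0.20 and -0.10, and Bcs1l, which inserts the Rieske protein into complex III, at -0.32; none of these passed.

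None of the 3 subunits made inside mitochondria passed. Cytochrome b of complex III, mt-Cytb, had 23828, 52569 and 41556 CPM in the anti-PD-1 libraries, against 46695, 73135 and 49155 CPM in the anti-IgG libraries (log2 change -0.52 with SE 0.35, edgeR's adjusted p = 0.31). The ATP synthase a subunit, mt-Atp6, had 3793, 3599.7 and 1884 CPM in the anti-PD-1 libraries, against 1291, 2895 and 1859.7 CPM in the anti-IgG libraries (log2 change 0.62 with SE 0.35, edgeR's adjusted p = 0.221). The other membrane subunit, mt-Atp8, averaged 6.35 ± 1.30 CPM under anti-PD-1 and 10.1 ± 3.28 CPM under anti-IgG (SD, n = 3 each) (log2 change -0.67 with SE 0.29, edgeR's adjusted p = 0.115). The values of all 3 overlapped between groups. With the gene length trend removed mt-Atp6 passed as a rise (1.42, edgeR adjusted p = 0.033). With the coding and 3' UTR length trend removed mt-Atp6 did not pass (0.83, edgeR adjusted p = 0.146). For mt-Cytb those lengths were not available, so its value was left uncorrected there.

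The counts of changed coenzyme Q genes and of changed genes of cristae structure lay near the background, in which 21.1% of all tested genes changed. Slc25a4, the heart's main ADP and ATP exchanger, averaged 1423 ± 249 CPM under anti-PD-1 and 2962 ± 857 CPM under anti-IgG (SD, n = 3 each). It fell (log2 change -1.06 with SE 0.27, edgeR's adjusted p = 0.0215) and lost its call without anti-PD-1 library 1 or 3 or anti-IgG library 3 (adjusted p up to 0.0803 by edgeR), while the phosphate carrier Slc25a3 (-0.27) and Slc25a5 (-0.37) did not pass. Of 13 coenzyme Q genes 2 fell, 1 rose and 10 did not pass (median -0.18). Coq7, the hydroxylase late in coenzyme Q synthesis, had 16.9, 25.1 and 22.2 CPM in the anti-PD-1 libraries, against 48.1, 53.5 and 60.8 CPM in the anti-IgG libraries and fell (log2 change -1.34 with SE 0.20, edgeR's adjusted p = 0.00436). Coq4, which organises the synthesis complex, fell by 0.96 on the log2 scale (edgeR adjusted p = 0.0289), a call lost without anti-PD-1 library 1 or 3 or anti-IgG library 2 or 3. Coq10b, a coenzyme Q-binding protein, averaged 44.4 ± 11.6 CPM under anti-PD-1 and 28.5 ± 2.45 CPM under anti-IgG (SD, n = 3 each). It rose (log2 change 0.64 with SE 0.21, edgeR's adjusted p = 0.0478), and its call ended whichever of the 6 libraries was left out. Among 9 tested genes of cristae structure 1 fell, 1 rose and 7 did not pass (median -0.37). Minos1, a small core protein of cristae junctions, had 80.4, 100.1 and 104 CPM in the anti-PD-1 libraries, against 240.5, 256 and 208 CPM in the anti-IgG libraries and fell (log2 change -1.31 with SE 0.19, edgeR's adjusted p = 0.0042). Opa1, the inner membrane fusion protein that holds cristae tight, had 283, 324 and 235 CPM in the anti-PD-1 libraries, against 147, 123 and 133 CPM in the anti-IgG libraries and rose (log2 change 1.07 with SE 0.20, edgeR's adjusted p = 0.0077). With the coding and 3' UTR length trend removed, Slc25a4 was at -0.73 (edgeR adjusted p = 0.0974) and Coq4 at -0.77 (edgeR adjusted p = 0.0871), and neither passed. Coq7, Coq10b, Minos1 and Opa1 stayed past the threshold there, at -0.83, 0.95, -0.70 and 1.21.

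Markers of heart muscle cells moved unevenly. Of 8 cardiomyocyte markers, Myl2, Tnnt2 and Tnni3 fell, Ryr2 rose and Myh6, Myl3, Actc1 and Ttn did not pass. Their summed level was 20826 to 36098 CPM under anti-PD-1 and 32551 to 40668 CPM under anti-IgG. None of 5 fibroblast markers passed (together 1287 to 1991 CPM under anti-PD-1 and 1188 to 1650 CPM under anti-IgG). Of 5 endothelial markers Fabp4 fell (1265 to 1436 CPM summed with anti-PD-1 and 1754 to 1773 CPM with anti-IgG). Fabp4 alone had 118 to 251 CPM with anti-PD-1 and 449 to 653 CPM with anti-IgG. Pecam1, Cdh5, Kdr and Tek did not pass, at 0.097, -0.25, 0.098 and 0.026 on the log2 scale. Of 4 macrophage markers Adgre1 rose and C1qa fell, both calls that single libraries could end (110.3 to 115 CPM summed with anti-PD-1 and 83.5 to 188 CPM with anti-IgG). Without anti-IgG library 2 the calls of Myl2, Tnnt2 and Tnni3 ended. That of Tnni3 also ended without anti-PD-1 library 1, and that of Tnnt2 without anti-PD-1 library 1 or 3 or anti-IgG library 3. The calls of Ryr2 and Fabp4 held without any 1 library. With the coding and 3' UTR length trend removed, none of Myl2, Tnnt2, Tnni3, Ryr2, Fabp4 and C1qa passed (edgeR adjusted p 0.0531, for Fabp4, to 0.182, for C1qa), Adgre1 remained a rise and Ttn became a fall (-0.995, edgeR adjusted p = 0.0295). The part of these markers in the changes described was not tested.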

How the data were processed

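The authors deposited raw read counts per gene and FPKM values for the same 6 libraries. Per the labels' protocols, libraries were made from fragmented mRNA using NEBNext Ultra reagents. The submitters' processing notes name featureCounts and mm10; the aligner and the strand setting are not given in the sources used here, nor is the scaling behind FPKM between libraries. FPKM use the authors' own gene length.

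Counts were tested with edgeR 4.0.16 (R 4.3.3): filterByExpr, TMM scaling, glmQLFit with robust=TRUE and the 2-sided quasi-likelihood F test between groups, with Benjamini-Hochberg adjustment over 14807 genes and a threshold of 0.05. The SE is the size of the log2 fold change over the square root of F. Shares and ratios of FPKM were tested by exact permutation. The code was tested on simulated data.

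Alternatives were RLE and upper quartile scaling, no filter, a stricter filter (1 CPM or more in 3 libraries or more), DESeq2 1.42.0, limma 3.58.1 (voom, and trend on log2(FPKM + 1) and log2(FPKM + 0.1)), a replicate block, removal of haemoglobin genes and of those encoded in mitochondria, each library left out, and 2 length corrections. These removed the trend within each library (log2 CPM with prior count 2; natural splines, 5 degrees of freedom) on the authors' gene length, or on coding and 3' UTR length of the GENCODE M21 protein-coding transcript with the longest coding sequence, available for all 38 genes and for 13066 of the tested genes.

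Members and lists were chosen with earlier results of these data known. Every subunit gene is named; values in every library are given for members past the threshold, for complex II subunits, Uqcrfs1 and the main F1 and c ring genes, and for others chosen after their values were seen. Dmac2l and Micos13 were not found by symbol. Atp5s, a tested member, is the older symbol of Dmac2l. The 600 bp class and the motifs were chosen after values were seen; motifs were searched in each gene's first listed RefSeq promoter; 3 genes had more than 1.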

Additional observations from a re-analysis of the deposited data

How the results depend on the processing

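The 22 falls became 12 with the gene length trend removed and 3 with the coding and 3' UTR length trend removed. For the first of these settings the share of all tested genes was not counted. By complex these settings gave 0 and 0 falls in complex II (2 in the main test), 6 and 1 in complex III and cytochrome c (9), and 6 and 2 in ATP synthase (11). The transcript length setting uses 1 annotated transcript per gene, and the cause of the length trend was not tested. Leaving out 1 library gave 10 to 24 changed genes in all, 1 to 2 in complex II, 3 to 9 in complex III and cytochrome c and 6 to 13 in ATP synthase. Under the scaling, filter, tool, FPKM and mitochondrial alternatives the total was 20 to 25, and 0 genes rose in any setting. Outside the main test and the transcript length setting, the matching shares of all tested genes were not counted.

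Upper quartile scaling and DESeq2 also called Sdhb, Atp5c1 and Atp5f1, and the stricter filter and voom also called Atp5c1. On either FPKM scale Cyc1 and Atp5g3 missed the threshold (limma adjusted p 0.0523 to 0.0682).

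Genes that did not pass in the main test changed sign as follows. With the coding and 3' UTR length trend removed, the log2 fold change was 0.099 for Sdhb, 0.091 for Sdhd, 0.55 for Sdhaf2, 0.031 for Uqcrc1, 0.19 for Uqcrc2, 0.12 for Uqcrfs1, 0.065 for Uqcc1 and 0.092 for Atp5s, and for Atp5mpl, which had passed, it was 0.14. With the gene length trend removed it was 0.15 for Sdhd, 0.20 for Uqcrc2, 0.28 for Uqcrfs1 and 0.088 for Atp5s. Uqcc1 lay at 0.012 with RLE scaling and with DESeq2, 0.0041 without a filter, 0.014 and 0.015 on log2(FPKM + 1) and log2(FPKM + 0.1), and 0.015 without mitochondrially encoded and haemoglobin genes. Upper quartile scaling gave -0.017 for Sdha and -0.060 for Atp5a1, and put the median of all tested genes at -0.12. Leaving out 1 library gave -0.13 to 0.24 for Sdha, -0.17 to 0.21 for Atp5a1, -0.19 to 0.0090 for Uqcrc2 and -0.14 to 0.12 for Uqcc1.

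Deviations from the group means correlated at 0.12, -0.14 and 0.21 between libraries of the same replicate number. Between libraries of unlike number they correlated at -0.34 to 0.20. With 3 libraries per group the deviations depend on each other, so these values cannot decide whether the numbers pair the libraries. With the number as a block, 23 genes changed, 2 in complex II, 9 in complex III and cytochrome c and 12 in ATP synthase, where the added gene was Atp5k. Depth limits Sdhaf1 most, with 7 to 156 reads per library.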
